A study of Mus musculus with 6 samples.

Results

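The genes described here bring circulating fat into epididymal white adipose tissue, the abdominal fat pad beside the testis of male mice. They are 10 genes listed by name: lipoprotein lipase (Lpl), its helpers Lmf1 and Gpihbp1, its regulators Angptl4 and Angptl8, the fatty acid transporters Cd36, Slc27a1 and Slc27a2, and the fatty acid binding proteins Fabp4 and Fabp5. All 10 of the 10 were found among the 54356 annotated genes, and all 10 passed the filter on low counts, which left 17852 genes for testing. Poly(A) RNA of whole fat pads was sequenced, in 3 libraries from mice labelled cold and 3 from mice labelled ctrl, with 1 mouse per library. Cold mice (mice 7, 12 and 16) and ctrl mice (mice 5, 6 and 10) were wild type C57BL/6N males of 20 weeks. Cold mice were housed singly at 4 °C for 24 h before harvest. The labels repeat that text for all 6 samples and give no separate treatment for ctrl, so only the colony's 22 to 24 °C is on record for them. Whether ctrl mice were housed singly is not given.

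Triglyceride reaches fat cells inside large lipoproteins that cannot leave the blood. Lipoprotein lipase, made mainly by the fat cells, is folded with the help of the endoplasmic reticulum protein LMF1, is picked up by the capillary protein GPIHBP1 and cuts triglyceride at the vessel wall, while angiopoietin-like proteins inhibit it. The released fatty acids cross the membranes with the help of CD36 and the SLC27A proteins, are turned into acyl-CoA, and are carried in the cytosol by FABP4 and FABP5.

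The libraries held 22815828 to 28572518 estimated counts in cold and 19657338 to 24093088 in ctrl. Across all tested genes 516 were called at an adjusted p under 0.05 in edgeR's quasi-likelihood fit (Benjamini-Hochberg adjustment), 415 of them higher and 101 lower in cold. Fat cell markers were abundant in every library, with 12 of them summing to 27420 to 28220 CPM (counts of a gene at a common library total) in cold and 29610 to 33100 CPM in ctrl. Markers of epithelium stood apart: 12 of them summed to 155.5, 300.9 and 271.2 CPM in cold 7, 12 and 16, against 44.58, 10.83 and 15.3 CPM in ctrl 5, 6 and 10. Ctrl 5 had the highest epithelial sum of its group and cold 7 the lowest of its group, so results are also given without these 2 libraries where that matters. In whole tissue, fewer cells of a type and less RNA per cell cannot be told apart.

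None of the 10 genes passed the threshold, where 2.89% of all tested genes did. Their adjusted p-values ran between 0.126 for Slc27a2 and 0.928 for Gpihbp1 (edgeR, Benjamini-Hochberg). DESeq2 on the same counts called 3 of the 10, Angptl8, Fabp4 and Slc27a1, against 7.51% of all tested genes. At an unadjusted p under 0.05 there were 6 of the 10 by edgeR, against 17.6% of all tested genes. In 6 of the 10 the cold and ctrl libraries did not overlap in CPM, against 23.8% of all tested genes: Angptl8, Fabp4, Fabp5, Slc27a1 and Slc27a2 were higher in every cold library and Lmf1 was lower in every one. Lpl, Angptl4, Gpihbp1 and Cd36 overlapped. In TPM 5 of the 10 did not overlap. Slc27a2 passed the filter on low counts through its cold libraries, so its place in these counts adds no support. The median log2 fold change of the 10 genes was 0.16, against -0.01 over all tested genes.

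**Figure D1:**
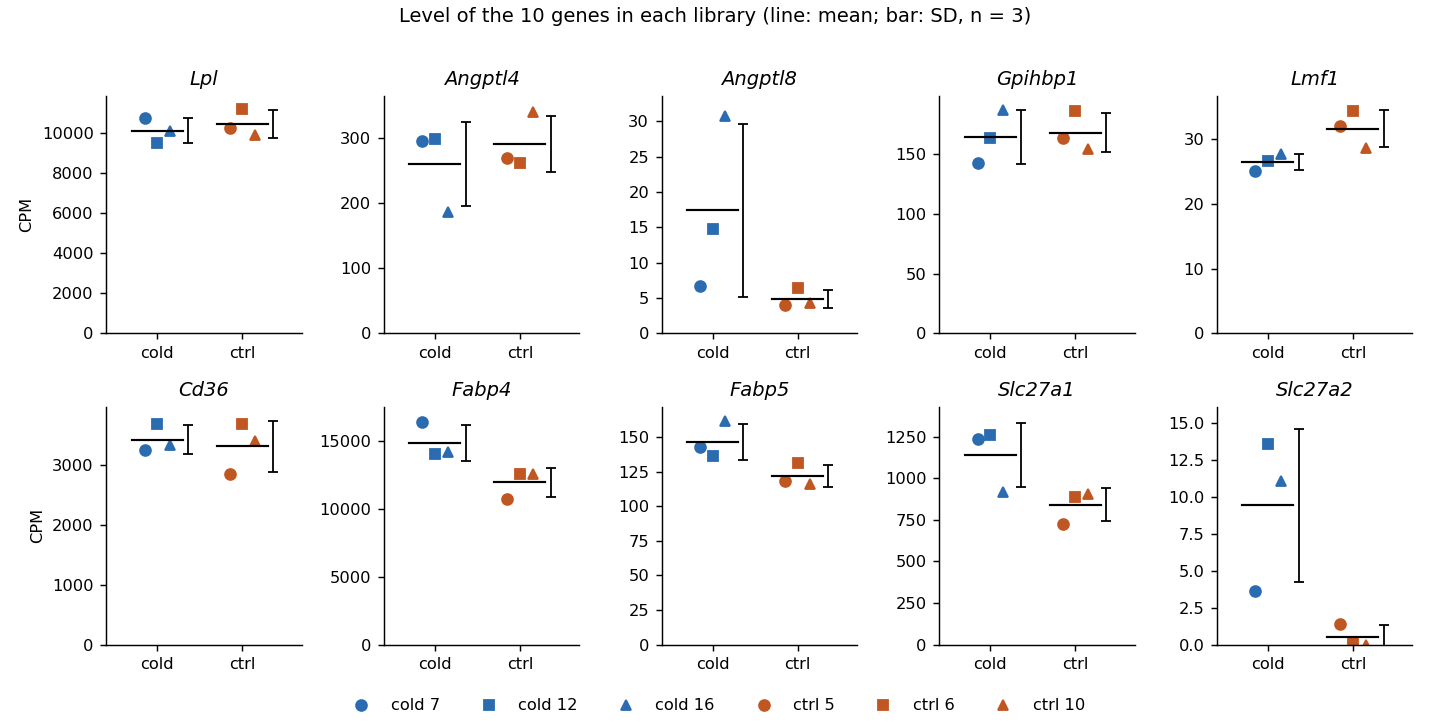
Level of each of the 10 genes, in CPM on a linear axis that starts at 0, in the 3 cold libraries (left of each panel) and the 3 ctrl libraries (right), with the group mean as a line and the SD as a bar. The groups are separate for Angptl8, Lmf1, Fabp4, Fabp5, Slc27a1 and Slc27a2, and overlap for Lpl, Angptl4, Gpihbp1 and Cd36.

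The 10 genes together held 3.23, 2.95 and 2.92% of all counts in cold 7, 12 and 16, against 2.52, 2.83 and 2.71% in ctrl 5, 6 and 10. Cold libraries were all above ctrl libraries, and Fabp4 and Lpl supplied most of both. Fabp4 alone held 1.642, 1.422 and 1.422% in cold 7, 12 and 16, against 1.075, 1.227 and 1.243% in ctrl 5, 6 and 10. The share of Lpl overlapped between the groups. Per length, in TPM (transcript abundance corrected for length, at a common total), Fabp4 averaged 27827 TPM over the 6 libraries, and only 2 genes of the whole data had a higher mean. Lpl followed at 3560 TPM with 21 genes above it, Cd36 at 2099 TPM with 50 above it, Slc27a1 at 700.4 TPM with 165 above it and Gpihbp1 at 342 TPM with 381 above it. The ranges of these 5 genes over the 6 libraries did not overlap in TPM. Fabp5 at 228 TPM and Angptl4 at 212 TPM overlapped each other, as did Lmf1 at 24.9 TPM with Angptl8 at 20.8 TPM, and Angptl8 with Slc27a2 at 3.34 TPM. The lipase RNA therefore stood far above the RNAs of its regulators in both groups.

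Lpl (ENSMUSG00000015568, chr8:68880491-68907448, plus strand, build GRCm38) encodes the lipase itself. It had 10733, 9487 and 10055 CPM in cold 7, 12 and 16, against 10220, 11189 and 9856 CPM in ctrl 5, 6 and 10. The libraries of the groups were interleaved, and ctrl 6 was the highest of all. The log2 fold change of cold over ctrl was -0.05 ± 0.11 (SE), with a 95% interval of -0.30 to 0.20 and an adjusted p of 0.885 (edgeR, Benjamini-Hochberg). That interval spans 0.814-fold to 1.15-fold, so larger differences in Lpl RNA lie outside it. Nearly all Lpl counts were assigned to 1 of its 5 transcripts, Lpl-201, with 99.5% ± 0.04 in cold and 99.5% ± 0.09 in ctrl (SD, n = 3 each).

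Lmf1 (ENSMUSG00000002279, chr17:25579085-25662826, plus strand) had 25.2, 26.6 and 27.7 CPM in cold libraries, against 32.0, 34.4 and 28.6 CPM in ctrl libraries. Every cold library was below every ctrl library, by a narrow margin between cold 16 and ctrl 10. Cold over ctrl, the log2 fold change was -0.26 ± 0.09 (95% interval -0.47 to -0.05, edgeR adjusted p = 0.183). Of the 10 genes, only Lmf1 was lower in all cold libraries. Its relative Lmf2, a member of the same protein family, averaged 70.4 ± 1.2 CPM in cold and 81.4 ± 1.7 CPM in ctrl (SD, n = 3 each), also without overlap, with a log2 fold change of -0.21 ± 0.06 (edgeR adjusted p = 0.117). Most Lmf1 counts came from Lmf1-202, with 79.4% ± 9.7 in cold and 78.0% ± 5.5 in ctrl.

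Gpihbp1 (ENSMUSG00000022579, chr15:75596628-75599481, plus strand), the capillary anchor of the lipase, had 143, 164 and 188 CPM in cold libraries, against 164, 187 and 154 CPM in ctrl libraries. The groups overlapped fully, and cold 7 and cold 16 were the lowest and highest of all 6. For this anchor the log2 fold change was -0.03 ± 0.12 (95% interval -0.30 to 0.23, edgeR adjusted p = 0.928). Gpihbp1 is made by capillary endothelial cells, and 12 markers of that cell type summed to 1590 to 1810 CPM in cold and 1922 to 1990 CPM in ctrl. All 12 of those markers had a log2 fold change below 0, none was called by edgeR (3 at an unadjusted p under 0.05) and 1 by DESeq2, and their median was -0.13. The part of capillary content in the Gpihbp1 values was not tested.

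Angptl4 (ENSMUSG00000002289, chr17:33773750-33781830, minus strand), the lipase inhibitor that fat cells secrete, had 296, 298 and 186 CPM in cold libraries, against 270, 262 and 340 CPM in ctrl libraries. Cold 16 was the lowest of all and ctrl 10 the highest, and the other 4 lay close together. Its log2 fold change was -0.16 ± 0.20 (95% interval -0.64 to 0.32, edgeR adjusted p = 0.759), and it was 0.03 without cold 16. Salmon assigned most Angptl4 counts to Angptl4-202, which the annotation types as nonsense-mediated decay, with 84.1% ± 0.3 in cold and 83.4% ± 0.3 in ctrl. The protein-coding Angptl4-201 held 15.1% ± 0.3 in cold and 15.2% ± 0.5 in ctrl, so the division was alike in all 6 libraries. With reads of 50 nt the assignment among overlapping transcripts is an estimate.

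Angptl8 (ENSMUSG00000047822, chr9:21835510-21837347, plus strand), a small insulin-responsive protein that alters how ANGPTL4 acts on the lipase, had 154, 375 and 879 counts in cold 7, 12 and 16, against 96, 142 and 83 counts in ctrl 5, 6 and 10. These are 6.74, 14.7 and 30.7 CPM in cold and 3.96, 6.35 and 4.26 CPM in ctrl. All cold libraries were above all ctrl libraries, but cold 7 lay only just above ctrl 6 while cold 16 was far above both. Angptl8 had a log2 fold change of 1.84 ± 0.58, a fold of 3.59 with a 95% interval of 1.33 to 9.68, and the adjusted p was 0.176 (edgeR, Benjamini-Hochberg). The value rested in part on cold 16: without it the log2 fold change was 1.14 with an adjusted p of 0.223 (edgeR). Without cold 7 the log2 fold change was 2.22 with an adjusted p of 0.0317 (edgeR). Cold 7 was the lowest cold library of Angptl8 itself, so leaving it out had to widen the difference and adds no support. DESeq2 on all libraries gave an adjusted p of 0.0481, and over all alternatives the adjusted p ran between 0.0317 and 0.419. The gene lies inside Dock6, which is read from the opposite strand, and Dock6 had 2427 to 3071 counts in cold and 2696 to 3453 counts in ctrl. The libraries were strand specific, and the sources used here do not give whether the quantification used strand.

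Angptl8 has a single annotated transcript, and the RefSeq promoter window of build GRCm38.p6 (250 bases before the start site and 50 after it) has the same start site. It is shown because Angptl8 had the second largest log2 fold change of the 10 genes. Windows were found for 5 of the 10 genes, and those of Slc27a1 and Cd36 are given with those genes. Capitals mark matches, on either strand, to the TATA box (letters TATAAA), the CCAAT box (CCAAT), an E box (letters CACGTG), a GC box (letters GGGCGG), a nuclear receptor half-site (letters AGGTCA) and a direct repeat of that half-site with 1 base between its copies, which overlaps the half-site search. None of these 6 motifs was matched in the Angptl8 window.
Angptl8, chr9:21835260-21835559, plus strand: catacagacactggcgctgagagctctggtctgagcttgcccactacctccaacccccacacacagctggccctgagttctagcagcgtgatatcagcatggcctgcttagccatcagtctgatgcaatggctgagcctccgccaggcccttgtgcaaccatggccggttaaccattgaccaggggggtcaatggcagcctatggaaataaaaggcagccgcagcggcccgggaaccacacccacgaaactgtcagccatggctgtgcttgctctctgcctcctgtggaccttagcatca

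Among all 32851 RefSeq windows of this length, 13.6% held the TATA box, 37.4% the CCAAT box, 7.15% the E box, 35.7% the GC box, 16.3% the half-site and 0.0396% the direct repeat. A match is a description of letters and not of binding.

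**Figure D2:**
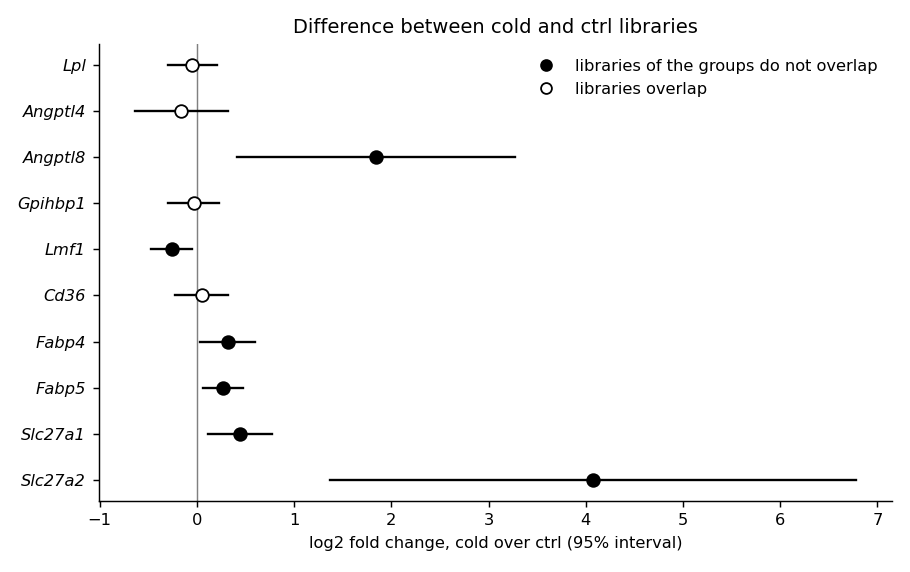
Log2 fold change of cold over ctrl for each of the 10 genes, with the 95% interval of edgeR's quasi-likelihood test. Filled points are genes whose cold and ctrl libraries did not overlap in CPM. The intervals of Angptl8 and Slc27a2 are wide, and none of the 10 passed the threshold after adjustment over all tested genes.

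Cd36 (ENSMUSG00000002944, chr5:17781690-17888801, minus strand), the scavenger receptor that takes up long-chain fatty acids, had 3253, 3697 and 3340 CPM in cold libraries, against 2848, 3688 and 3410 CPM in ctrl libraries. The groups overlapped, and ctrl 5 was the lowest of all. Its log2 fold change was 0.05 ± 0.12 (95% interval -0.23 to 0.33, edgeR adjusted p = 0.889). It was -0.04 without ctrl 5.

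The 6 annotated Cd36 transcripts start in 3 places, the second 39009 bases and the third 53084 bases downstream of the first. The first start held 47.1, 38.1 and 41.4% of Cd36 counts in cold 7, 12 and 16, against 43.1, 43.4 and 40.8% in ctrl 5, 6 and 10. The third held 27.3, 36.7 and 35.0% in cold libraries, against 33.1, 33.5 and 33.6% in ctrl libraries. Salmon assigned counts to transcripts of all 3 starts in every library. Cold 7 had the largest share at the first start and the smallest at the third. With reads of 50 nt this division among overlapping transcripts is an estimate. Group means were close, with 42.2% ± 4.6 in cold and 42.4% ± 1.4 in ctrl for the first start, and 33.0% ± 5.0 in cold and 33.4% ± 0.3 in ctrl for the third (SD, n = 3 each). The RefSeq window of Cd36 lies at the third start, with its start site 179 bases upstream of that of Cd36-206. It is shown because that start supplied about as many counts in cold as in ctrl, and it held 1 CCAAT box, 2 GC boxes and 1 half-site, the last on the opposite strand and so printed as TGACCT.
Cd36, chr5:17835847-17836146, minus strand: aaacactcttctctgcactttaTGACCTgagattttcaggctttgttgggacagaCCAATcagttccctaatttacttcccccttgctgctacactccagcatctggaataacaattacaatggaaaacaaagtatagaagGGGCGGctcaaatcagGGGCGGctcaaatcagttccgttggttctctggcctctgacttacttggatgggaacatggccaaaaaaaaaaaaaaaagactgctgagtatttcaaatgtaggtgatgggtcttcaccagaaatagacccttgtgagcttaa

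Slc27a1 (ENSMUSG00000031808, chr8:71568882-71587302, plus strand), fatty acid transport protein 1 of fat and muscle, had 1239, 1263 and 920 CPM in cold libraries, against 726, 888 and 906 CPM in ctrl libraries. Cold 7 and cold 12 were well above every ctrl library, and cold 16 was only just above ctrl 10. The log2 fold change was 0.44 ± 0.14 (95% interval 0.11 to 0.77, edgeR adjusted p = 0.148), and DESeq2 gave an adjusted p of 0.0209. In TPM the groups overlapped, with 892, 876 and 579 TPM in cold and 557, 619 and 680 TPM in ctrl, so the separation depended on the unit. All 9 Slc27a1 transcripts were tested, and the protein-coding Slc27a1-207 and Slc27a1-201 held 45.4% ± 3.9 and 22.6% ± 1.5 of the gene's counts in cold, against 43.4% ± 3.4 and 23.3% ± 0.9 in ctrl. RefSeq gives 3 promoter windows for the gene. The first, with its start site 11 bases upstream of that of the most abundant transcript, is shown because the gene was higher in each cold library in CPM, and it held 1 CCAAT box.
Slc27a1, chr8:71568621-71568920, plus strand: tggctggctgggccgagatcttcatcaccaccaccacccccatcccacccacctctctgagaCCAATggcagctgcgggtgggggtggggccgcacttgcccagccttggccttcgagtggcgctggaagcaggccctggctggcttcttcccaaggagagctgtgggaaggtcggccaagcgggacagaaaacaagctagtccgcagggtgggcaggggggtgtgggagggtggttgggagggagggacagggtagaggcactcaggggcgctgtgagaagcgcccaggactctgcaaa

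Slc27a2 (ENSMUSG00000027359, chr2:126552407-126588243, plus strand), fatty acid transport protein 2, best known from liver and kidney, had 83, 345 and 318 counts in cold 7, 12 and 16, against 34, 4 and 0 counts in ctrl 5, 6 and 10. In CPM these are 3.63, 13.6 and 11.1 in cold and 1.40, 0.179 and 0 in ctrl. Every cold library was above every ctrl library, with cold 7 lowest in its group and ctrl 5 highest in its group. The log2 fold change was 4.08 ± 1.08, with a 95% interval of 1.37 to 6.78 and an adjusted p of 0.126 (edgeR, Benjamini-Hochberg). The gene passed the filter on low counts through its cold libraries, so its being higher in cold adds no support. Over all alternatives the log2 fold change ran between 3.55 (without ctrl 10, edgeR adjusted p = 0.209) and 6.95 (without both ctrl 5 and cold 7, edgeR adjusted p = 0.000331), and DESeq2 gave an adjusted p of 0.0788. It was called without ctrl 5 (6.56, edgeR adjusted p = 0.0389) and without both ctrl 5 and cold 7, but these are the highest ctrl and the lowest cold library of Slc27a2 itself, so leaving them out had to widen the difference and adds no support.

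The order of libraries in Slc27a2 was that of the summed epithelial markers, apart from ctrl 6 and ctrl 10. All 11 tested epithelial markers were higher in every cold library, 5 of them passed the test, their median log2 fold change was 3.39, and 9 of the 11 had ctrl 5 highest in ctrl and cold 7 lowest in cold. Markers of motile cilia had the same order, with 10 of 10 in that pattern, 3 called and summed levels of 64.46 to 194.5 CPM in cold and 6.429 to 29.65 CPM in ctrl. None of these markers was at 0 in all libraries. Grhl2, Cldn4, Cdh1 and Prom2, all among the called epithelial markers, passed the filter on low counts through their cold libraries. So did the called ciliary marker Tekt1, and Epcam and Cldn7 among the epithelial markers not called. In ctrl Grhl2 had 0.103 to 0.248 and Cldn4 0.0447 to 0.0826 CPM. In ctrl 5, 6 and 10 Cdh1 had 1.65, 0.313 and 0.257 CPM, Prom2 3.76, 0.805 and 0.154, and Tekt1 0.785, 0.313 and 0.154. That these markers were higher in cold adds no support. Without cold 12, cold 16, ctrl 6 or ctrl 10 no marker of either list was called (edgeR). Those fits called 0, 3, 0 and 0 of all tested genes. Without ctrl 5 and cold 7 there were 11 epithelial and 10 ciliary calls (edgeR). Ctrl 5 and cold 7 were the highest ctrl and the lowest cold library of most of these markers. Leaving them out had to widen the difference and adds no support. Among the 10 genes only Slc27a2 had both of these libraries in those places. Angptl8 and Slc27a1 had other orders: cold 16 was highest for Angptl8 and lowest in cold for Slc27a1. The part of epithelial RNA in these values was not tested.

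**Figure D3:**
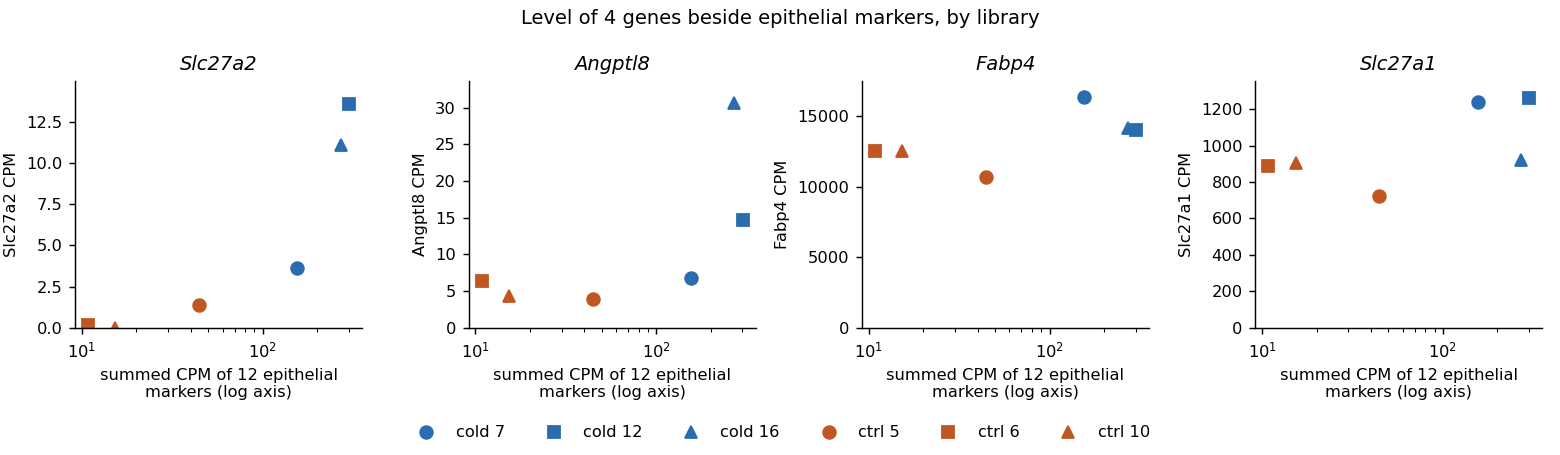
CPM of Slc27a2, Angptl8, Fabp4 and Slc27a1 in each library (linear axis from 0) against the summed CPM of 12 epithelial markers (log axis), with cold libraries in blue and ctrl libraries in orange. Slc27a2 has the library order of the marker sum except that ctrl 6 and ctrl 10, at 0.179 and 0 CPM, change places; the other 3 genes do not have that order.

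Fabp4 (ENSMUSG00000062515, chr3:10204088-10208576, minus strand), the main fatty acid carrier of the fat cell cytosol, had 16394, 14023 and 14185 CPM in cold libraries, against 10694, 12570 and 12549 CPM in ctrl libraries. All cold libraries were above all ctrl libraries, with cold 7 the highest and ctrl 5 the lowest. For Fabp4 the log2 fold change was 0.32 ± 0.12 (95% interval 0.03 to 0.60, edgeR adjusted p = 0.225), and DESeq2 gave an adjusted p of 0.0242. The summed fat cell markers given above were lower in all cold libraries, but without Cfd (a sum added after seeing the data) the other 11 summed to 20542.6 to 22214.0 CPM in cold and 20498.9 to 22925.8 CPM in ctrl, and the groups overlapped. Of those 12 markers 9 had a log2 fold change below 0 and 3 above it, with a median of -0.08. Adrb3 (-0.70), Plin1 (-0.23) and Plin4 (-0.31) were lower in every cold library and Pnpla2 (0.46) was higher in every one, none of them called by edgeR. The hormone gene Lep and the lipogenic regulator gene Thrsp rose (log2 fold changes 0.61 and 0.74, edgeR adjusted p = 0.0439 and 0.0319). Cfd, which encodes the secreted protease adipsin, fell (-0.59, edgeR adjusted p = 0.0438). All 3 of these calls were lost without cold 12, cold 16, ctrl 6 or ctrl 10, where 0, 3, 0 and 0 of all tested genes were called. Without ctrl 5, 1 call was left in the list.

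Fabp5 (ENSMUSG00000027533, chr3:10012548-10016607, plus strand), the second carrier, also made by endothelial cells and macrophages, had 142, 136 and 161 CPM in cold libraries, against 118, 131 and 116 CPM in ctrl libraries. Every cold library was above every ctrl library, with ctrl 6 the closest. The log2 fold change was 0.27 ± 0.09 (95% interval 0.07 to 0.47, edgeR adjusted p = 0.148). Summed macrophage markers overlapped between the groups, at 860.3 to 1527 CPM in cold and 1172 to 1348 CPM in ctrl. How reads shared with near-identical copies of Fabp5 were divided was not tested.

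Both carrier genes lie in 1 stretch of chromosome 3 with Pmp2 and Fabp9 between them and Fabp12 beyond Fabp4. Fabp9, next to Fabp4 on the same strand and known from testis, had 105, 39 and 22 counts in cold libraries, against 3, 17 and 9 counts in ctrl libraries. Its groups did not overlap in CPM, by a very narrow margin between cold 16 and ctrl 6, as was so for 23.8% of all tested genes. The edgeR adjusted p was 0.204. Fabp9 passed the filter on low counts through its cold libraries, so its being higher in cold adds no support. Pmp2 had 0 to 11 counts in cold and 0 to 14 in ctrl, and Fabp12 had 6 to 10 in cold and 7 in each ctrl library.

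Both carriers also have an annotated transcript that keeps an intron. Fabp4-202 held 3.38, 3.86 and 3.04% of Fabp4 counts in cold 7, 12 and 16, against 6.79, 4.43 and 6.45% in ctrl 5, 6 and 10. Fabp5-202 held 7.59, 7.37 and 7.78% of Fabp5 counts in cold, against 11.1, 7.81 and 11.9% in ctrl. In both genes all cold libraries were below all ctrl libraries and ctrl 6 was the lowest ctrl library. For Fabp5 the margin between cold 16 and ctrl 6 was narrow. Angptl4 separated in the same direction, with 0.355, 0.300 and 0.439% in cold and 1.137, 0.448 and 0.728% in ctrl. Lpl, Gpihbp1, Lmf1 and Slc27a1 overlapped, and Lmf1 had the higher mean in cold. How many of all genes separate in this way was not counted. Over all genes, retained-intron transcripts held 3.55 to 4.01% of counts in cold and 3.74 to 3.98% in ctrl and did not separate the groups.

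In a test of transcript usage across 9654 genes, 0.984% were called by the gene-level Simes p, and none of the 9 lipase and uptake genes with several transcripts was among them. Fabp4 was nearest, with a usage log2 difference of -0.77 for Fabp4-202 and a Simes adjusted p of 0.0989 (edgeR diffSpliceDGE, Benjamini-Hochberg), or 0.0291 without ctrl 6. Ctrl 6 was the ctrl library nearest to cold for Fabp4-202, so leaving it out had to widen the difference and adds no support. The gene-level F test, chosen after seeing the data, gave 0.0489 for Fabp4 and 0.988 for Fabp5. On simulated data the Simes calls held 136 of 200 changed genes and 67 false ones, more than the threshold allows. Of 48 annotated transcripts of the 10 genes 41 were tested one by one, and none was called by edgeR, as was none (0%) of all 42984 transcripts. At an unadjusted p under 0.05 there were 10 of the 41 and 3503 of all (8.15%). DESeq2, also added after seeing the data, called 1162 of all transcripts (2.7%) and 4 of the 41: Slc27a1-202 (retained intron), Fabp4-201, Slc27a2-201 and Angptl8-201.

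**Figure D4:**
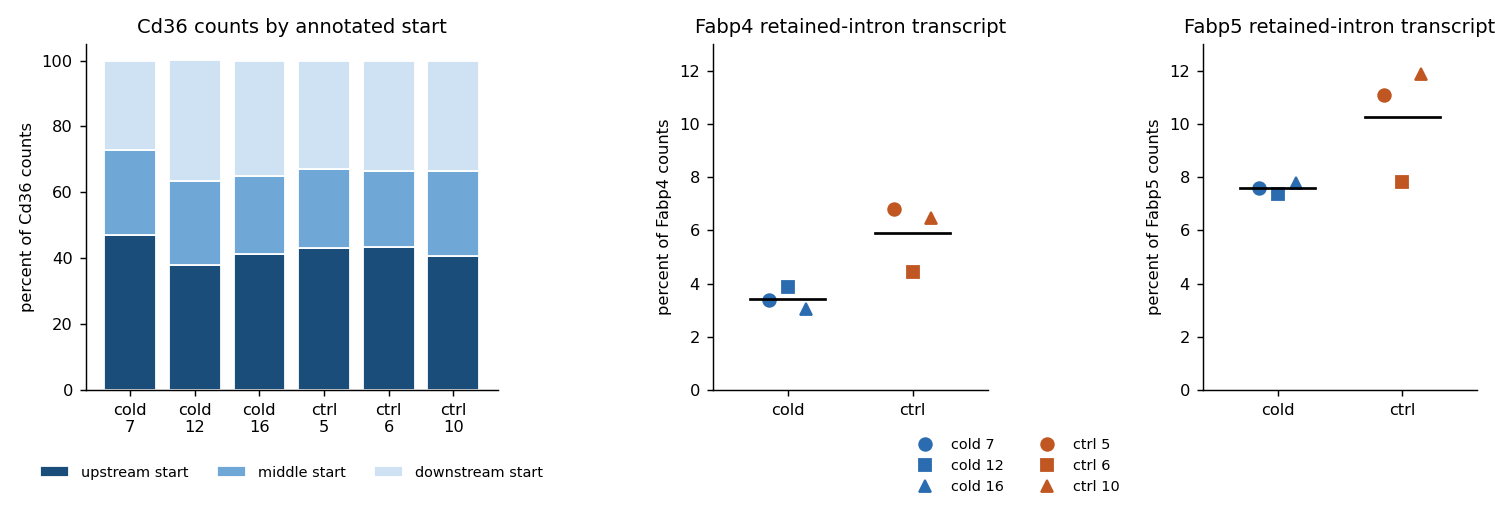
Left, percent of Cd36 counts from transcripts of the upstream, middle and downstream annotated start in each library. Middle and right, percent of Fabp4 and of Fabp5 counts assigned to the retained-intron transcript, with a point per library and the group mean as a line; cold libraries sit below ctrl libraries in both, and ctrl 6 lies nearest to cold.

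Ratios of TPM within a library do not depend on library scaling. The ratio of Lmf1 to Lpl was 0.00592, 0.00683 and 0.00688 in cold 7, 12 and 16, against 0.00784, 0.00752 and 0.00687 in ctrl 5, 6 and 10, a log2 difference of -0.18. The groups overlapped by a hair, at cold 16 and ctrl 10. The ratio of Slc27a1 to Cd36 was 0.429, 0.371 and 0.305 in cold, against 0.304, 0.273 and 0.315 in ctrl, a log2 difference of 0.30, and cold 16 lay below ctrl 10. For both the exact two-sided permutation p was 0.2, or 0.6 adjusted over the 6 ratios computed. The other 4 ratios, of Angptl4, Gpihbp1 and Cd36 to Lpl and of Fabp5 to Fabp4, differed by -0.13 to 0.13 on the log2 scale with exact p between 0.5 and 0.9. An exact test of 3 libraries against 3 cannot go below 0.1.

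Among 20 tested genes of 22 listed as further partners, inhibitors and receptors of the lipase, 1 was called higher and 0 lower by edgeR, where 2.32% of all tested genes were called higher and 0.566% lower. DESeq2 called 2 genes of the list. The list's median log2 fold change was -0.02. The 1 called gene was Apoc3, an apolipoprotein that inhibits the lipase and is known from liver and intestine: it had 1.18, 2.32 and 2.23 CPM in cold and 0.372, 0.313 and 0.103 CPM in ctrl. Its log2 fold change was 2.81 ± 0.48 (edgeR adjusted p = 0.0314) at a level of few counts. Like Slc27a2, Apoc3 passed the filter on low counts through its cold libraries, so its being higher in cold adds no support. Among the others, the lipoprotein receptor gene Lrp1 averaged 739 ± 124 CPM in cold and 998 ± 140.3 CPM in ctrl (log2 fold change -0.43, edgeR adjusted p = 0.172, DESeq2 adjusted p = 0.0427). Furin and Pcsk5, which encode proteases that cleave the lipase and its inhibitors, had log2 fold changes of 0.22 and 0.23.

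Among 20 tested genes of 30 listed for fatty acid transport, binding and activation, 0 were called in either direction by edgeR (7 at an unadjusted p under 0.05, against 17.6% of all tested genes) and 5 by DESeq2 (against 7.51%), and the median log2 fold change was -0.005. Acsl1, the main long-chain acyl-CoA synthetase of fat cells, had 2342, 2245 and 1605 CPM in cold, against 1206, 1519 and 1512 CPM in ctrl (log2 fold change 0.55 ± 0.16, edgeR adjusted p = 0.118). Like Slc27a1, it was high in cold 7 and cold 12, closer to ctrl in cold 16 and lowest in ctrl 5. Got2, an aminotransferase also described as a membrane fatty acid binding protein, averaged 70.1 ± 3.5 CPM in cold and 56.8 ± 1.2 CPM in ctrl (log2 fold change 0.30 ± 0.07, edgeR adjusted p = 0.0578). Cav1, the caveolar coat gene, averaged 2248 ± 217 CPM in cold and 2868 ± 214 CPM in ctrl (-0.35 ± 0.11, edgeR adjusted p = 0.128). Acsbg1, another acyl-CoA synthetase, had 24.2, 80.5 and 72.6 CPM in cold, against 11.8, 3.49 and 2.21 CPM in ctrl (edgeR adjusted p = 0.108). Ctrl 5 was highest in ctrl and cold 7 lowest in cold, as for Slc27a2 and the epithelial markers. DESeq2 called each of these genes, with an adjusted p of 0.00523 for Acsl1, 0.00888 for Got2, 0.00921 for Cav1 and 0.00252 for Acsbg1.

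Of the other SLC27A genes, Slc27a4 averaged 21.7 ± 1.6 TPM in cold and 20.2 ± 1.3 TPM in ctrl, and Slc27a3 7.90 ± 0.95 TPM in cold and 7.44 ± 1.45 TPM in ctrl. Fabp3, the heart-type carrier, averaged 2.51 ± 1.71 TPM in cold and 0.969 ± 0.257 TPM in ctrl, and Fabp1 and Fabp6 had 0 counts in every library. Angptl2, of the angiopoietin-like family, averaged 142 ± 15 TPM in cold and 177 ± 29 TPM in ctrl (log2 fold change -0.29, edgeR adjusted p = 0.288), near the level of Angptl4.

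Among 17 transcription factors linked to lipid uptake genes in fat or its capillaries, 0 were called higher and 1 lower in cold, and the median log2 fold change was -0.06. The 1 that fell was Tcf15, which encodes an endothelial factor that works with MEOX2 and is known to drive Cd36 and Lpl in heart capillaries. It had 31.9, 29.8 and 40.4 CPM in cold, against 53.2, 55.0 and 57.9 CPM in ctrl (log2 fold change -0.70 ± 0.12, edgeR adjusted p = 0.0312). Meox2 averaged 34.6 ± 8.1 CPM in cold and 48.8 ± 6.1 CPM in ctrl, without overlap (-0.49 ± 0.18, edgeR adjusted p = 0.200). The summed capillary markers were also lower in all cold libraries, as given above for Gpihbp1, and their part in the Tcf15 and Meox2 values was not tested. Both list calls were lost when single libraries were left out: Apoc3 without cold 12, cold 16, ctrl 6 or ctrl 10, and Tcf15 without any of the same 4. Those fits called 0, 3, 0 and 0 of all tested genes, so the loss is not particular to these genes. With each library left out, the log2 fold change ran between 2.47 and 3.15 for Apoc3 and between -0.85 and -0.60 for Tcf15. Tcf15 was also lost with an offset for transcript length (adjusted p = 0.111). Of the marker lists not yet described, macrophage, mesothelial and fibroblast markers held 0 called genes by edgeR, 0 by DESeq2 and 0 at an unadjusted p under 0.05 by edgeR. All 7 tested brown fat markers had a log2 fold change above 0, DESeq2 called 2 of them, and by edgeR 1 rose, Dio2, which encodes the deiodinase that activates thyroid hormone (log2 fold change 2.64 ± 0.38, edgeR adjusted p = 0.0252). It was scarce, with 1.36, 2.71 and 2.79 CPM in cold and 0.330, 0.358 and 0.411 CPM in ctrl, and its call was lost without cold 12, cold 16, ctrl 6 or ctrl 10. Dio2 also passed the filter on low counts through its cold libraries, so its being higher in cold adds no support.

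**Figure D5:**
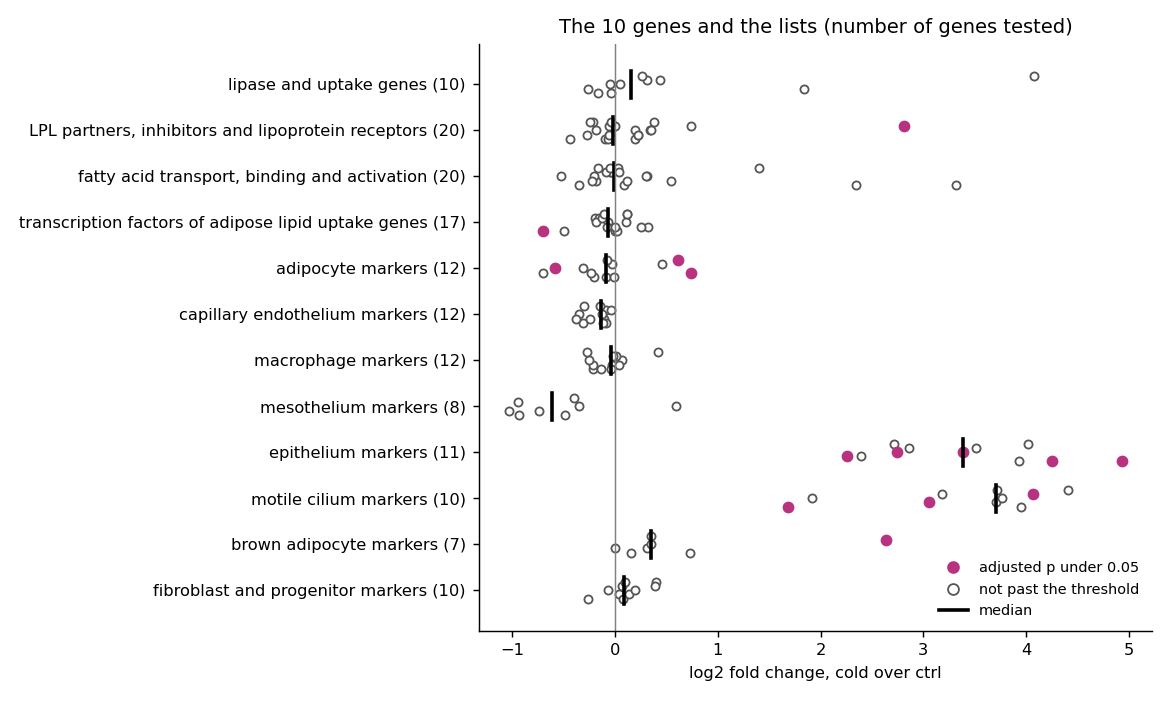
Log2 fold change of cold over ctrl for the 10 genes, the 3 lists of related genes and the 8 lists of cell type markers, with a point per tested gene, filled where the adjusted p was under 0.05, and the median as a black bar. The lipase and uptake genes and the 3 related lists have medians between -0.06 and 0.16, and the epithelial and ciliary markers have medians of 3.39 and 3.71.

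The genes nearest to Lpl in profile were Serhl, Stub1 and Raly. Likeness was the root mean square difference of log2 CPM (pseudocount 0.5), centred over the 6 libraries, among 11751 genes of at least 5 CPM. It was 0.0073 for Serhl, 0.0162 for Stub1 and 0.0169 for Raly, where Lpl itself had a root mean square deviation of 0.0783 about its own mean. Serhl had 37.5, 33.0 and 34.6 CPM in cold, against 35.3, 38.8 and 34.0 CPM in ctrl. So narrow a range over 6 libraries lets many genes lie near.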

How the data were processed

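Poly(A) RNA-seq of epididymal white fat was analysed from 3 cold and 3 ctrl libraries, each from its own mouse, so p-values measure the spread between these mice. Libraries were paired-end and strand-specific (50 nt reads), per the labels' protocols. The tools were bcl2fastq, cutadapt and Salmon on GRCm38, per the submitters' processing notes; the sources used here give neither versions nor the strand setting. For each library and transcript the authors deposited Salmon's estimated counts, TPM (scaled for length and depth) and lengths.

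Of 140658 transcripts, 140137 matched GENCODE M21 (GRCm38; coordinates count from 1). The other 521, with 0.124 to 0.394% of counts, name no gene and were left out. Deposited estimated counts were summed per gene and rounded. Totals were 19657338 to 28572518 a library. R 4.3.3 with edgeR 4.0.16 was used: filterByExpr (minimum count 10, minimum total 15), TMM, robust glmQLFit and glmQLFTest, two-sided, Benjamini-Hochberg over all genes tested, called under 0.05. Transcripts were tested likewise, and transcript usage with diffSpliceDGE. Deposited TPM values served for levels between genes and for ratios. CPM values use TMM-scaled library sizes. DESeq2 1.42.0 was an alternative, as were RLE scaling, no filter, a length offset, protein-coding transcripts alone and leaving out libraries. The fits were tested on simulated data. There 7.3% of the gene test's calls were false at the threshold of 0.05. It called 25 of 50 genes changed 1.5-fold and 44 of 50 changed 2-fold, so smaller differences are often missed. The usage test made more false calls than its threshold allows. The labels give no batch. Promoter sequences are from RefSeq, GRCm38.p6.

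The genes and lists were chosen with earlier results of these data known. Named were all 10 genes, each called gene of a list and up to 4 others of a list with the smallest p at 5 CPM or more, and the 3 profiles nearest to Lpl; families and neighbouring genes were added after their values were seen.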

Additional observations from a re-analysis of the deposited data

How the results depend on the processing

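No paired analysis was possible because the mouse numbers differ between the groups. Of the 10 genes, 0 were called by edgeR, 3 by DESeq2 (Angptl8, Fabp4 and Slc27a1), 1 without ctrl 5 and cold 7 (Slc27a2), and 0 to 1 when each library was left out in turn. The number of all genes called, 516, became 924 with no filter, 1340 with DESeq2, 1230 without ctrl 5 and cold 7, and 0 to 1090 with each library left out: 1090 without cold 7, 695 without ctrl 5, 3 without cold 16 and 0 without cold 12, ctrl 6 or ctrl 10, where 2546, 3071 and 2835 genes had an unadjusted p under 0.05 (edgeR). Calls in the 3 related lists, 2 in all, became 1 with a length offset, 8 with DESeq2, 4 without ctrl 5 and cold 7, and 0 to 4 with each library left out. Calls in the marker lists, 12 in all, became 26 with DESeq2, 26 without ctrl 5 and cold 7, and 0 to 22 with each library left out. Ctrl 5 and cold 7 were picked by the epithelial markers, so calls of those markers without them add no support. Calls of transcript usage among the 10 genes, 0 by the Simes p, became 1 by the F test and 0 to 1 with each library left out (1 without ctrl 6, where Fabp4 had a Simes adjusted p of 0.0291). Transcripts called among the 10 genes, 0, became 4 with DESeq2. The cause of these shifts was not tested.

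Over 12 alternatives each, 6 of the 10 genes kept their direction in all. The 4 that overlapped between groups changed sign in 9 of their fits. With each library left out, the log2 fold change ran between -0.14 and 0.058 for Gpihbp1 (0.058 without cold 7, 0.057 without ctrl 6), between -0.096 and 0.016 for Lpl (0.013 without cold 12, 0.016 without ctrl 6), between -0.040 and 0.14 for Cd36 (-0.040 without ctrl 5) and between -0.27 and 0.031 for Angptl4 (0.031 without cold 16). Without both ctrl 5 and cold 7 it was 0.049 for Gpihbp1 and -0.0056 for Cd36, and with protein-coding transcripts alone it was 0.0082 for Gpihbp1. Log2 differences of ratios ran between -0.28 and 0.065 for Angptl4 to Lpl (0.065 without cold 16, 0.023 without ctrl 10), between -0.17 and 0.028 for Fabp5 to Fabp4 (0.028 without cold 7), and between -0.088 and 0.19 for Gpihbp1 to Lpl (-0.0029 without cold 12, -0.088 without cold 16). Slc27a2 and Angptl8 rested on few counts, and with 3 libraries a group their intervals are wide.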
